A study of Mus musculus with 8 samples.

Results

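The genes described here are 37 genes of DNA repair and antibody diversification, out of 21887 mouse protein-coding genes with a RefSeq position on the primary chromosomes. They were listed by name and function, with earlier results of these data known. Each was read over its span plus 2 kb on both sides, called its window (GRCm38). DNA carrying 5-hydroxymethylcytosine (5hmC) was immunoprecipitated and sequenced (hMeDIP-seq) in germinal center B cells taken from the spleen of C57BL/6 mice. The 4 immunoprecipitated libraries were TET2 Knock-Out (KO) replicates 2 and 3 and TET2 Wild-Type (WT) replicates 2 and 3, and the 4 input libraries carried no processed values analysed here. The labels give neither the knockout allele nor a Cre driver, neither the age nor an immunization, and do not tell how many mice stand behind a library. The spread behind every p-value is that between these libraries and may be technical.

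TET2 is a dioxygenase that oxidizes 5-methylcytosine to 5hmC. Germinal center B cells mutate and recombine their antibody genes through deliberate DNA damage: activation-induced deaminase turns cytosines into uracils, and repair enzymes turn the uracils into mutations or breaks. Ung removes the uracil, mismatch repair factors recognize the mispair, translesion polymerases fill the gaps with errors, and end joining factors seal the breaks of class switching under the control of damage sensing kinases.

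All 4 libraries placed 5hmC peaks in the bodies of most of these genes and almost none in their promoters. A union region is a stretch formed by joining overlapping or touching peaks of any library. Such regions lay in the windows of 34 of the 37 genes (91.9%, against 83.7% of all protein-coding genes), and there were 355 of them. The other 3 genes, Ung, Apex1 and Lig4, had no peak in any library. They are short genes, with spans of 8.96, 2.24 and 7.66 kb, whereas Rad51b, the longest at 551 kb, had 89 union regions. RefSeq promoter sequences (250 bases before to 50 after a start site, GRCm38.p6) were at hand for 29 of the 37 genes. In KO replicate 3 a peak reached 26 bases into the promoter of Brca2, and no other promoter of the 29 genes was touched by a peak in any library. Of all 17492 protein-coding genes with a promoter record, 9.03% had a peak there in at least 1 library and 4.20% in all 4.

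The promoters below belong to the 3 genes without a peak, to Brca2 and to Rad51b, the gene with most peaks, and show, with CG in capitals, the CpG sites of promoters that held no peak, or no more than the 26 bases at Brca2. The letters searched were CG, which read the same on both strands, and 95.4% of 21263 promoter records of protein-coding genes hold at least 1.
Ung (chr5:114130185-114130484, plus strand, 16 CpG): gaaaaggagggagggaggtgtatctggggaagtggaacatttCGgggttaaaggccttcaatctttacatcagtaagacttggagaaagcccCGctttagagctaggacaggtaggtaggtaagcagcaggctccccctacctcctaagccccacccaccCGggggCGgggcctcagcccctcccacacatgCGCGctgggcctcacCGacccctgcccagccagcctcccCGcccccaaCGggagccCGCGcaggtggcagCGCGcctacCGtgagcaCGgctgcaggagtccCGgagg
Apex1 (chr14:50924699-50924998, plus strand, 31 CpG): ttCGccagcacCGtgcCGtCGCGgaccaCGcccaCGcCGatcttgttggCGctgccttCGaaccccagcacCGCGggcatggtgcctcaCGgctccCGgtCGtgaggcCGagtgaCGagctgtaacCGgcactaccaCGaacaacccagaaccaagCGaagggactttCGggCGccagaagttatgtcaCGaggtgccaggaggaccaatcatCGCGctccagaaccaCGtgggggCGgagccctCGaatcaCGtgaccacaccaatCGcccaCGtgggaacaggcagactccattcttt
Lig4 (chr8:9977631-9977930, minus strand, 30 CpG): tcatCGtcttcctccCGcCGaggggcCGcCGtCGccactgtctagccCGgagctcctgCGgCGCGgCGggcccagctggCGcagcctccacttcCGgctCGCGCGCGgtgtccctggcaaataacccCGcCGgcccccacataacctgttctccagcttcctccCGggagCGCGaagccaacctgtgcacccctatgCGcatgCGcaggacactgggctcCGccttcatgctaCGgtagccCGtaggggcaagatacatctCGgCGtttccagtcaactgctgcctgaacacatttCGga
Brca2 (chr5:150522371-150522670, plus strand, 25 CpG): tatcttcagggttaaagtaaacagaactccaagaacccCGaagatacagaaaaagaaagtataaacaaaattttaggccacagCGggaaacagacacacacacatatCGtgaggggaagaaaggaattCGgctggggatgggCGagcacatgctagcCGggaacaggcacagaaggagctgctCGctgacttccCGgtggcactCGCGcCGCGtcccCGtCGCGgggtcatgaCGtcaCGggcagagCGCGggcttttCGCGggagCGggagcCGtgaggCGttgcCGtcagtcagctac
Rad51b (chr12:79297032-79297331, plus strand, 10 CpG): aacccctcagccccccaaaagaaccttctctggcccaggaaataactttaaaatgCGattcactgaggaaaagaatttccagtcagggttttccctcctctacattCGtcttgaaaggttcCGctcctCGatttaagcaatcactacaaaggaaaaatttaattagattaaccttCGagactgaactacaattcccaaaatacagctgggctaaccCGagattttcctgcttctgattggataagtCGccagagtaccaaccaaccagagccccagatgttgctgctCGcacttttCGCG

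CpG sites were frequent in these promoters: the 32 promoter records of the genes held 9 to 51 CpG with a median of 22, against a median of 13 over all records. Among all records, a peak was present in 7.57% of those with at least 10 CpG and in 9.07% of those with fewer. The nearest peak summit lay a median of 2.83 kb from the start site in KO replicate 2, 3.34 kb in KO replicate 3, 2.86 kb in WT replicate 2 and 2.76 kb in WT replicate 3. Over all genes the same medians were 2.90, 3.07, 2.90 and 2.69 kb, so the distance to the nearest summit was about that of other genes. In 3 of the libraries the closest summit was that of Trp53bp1, which encodes a factor that protects broken ends for end joining. It lay 0.445 and 0.451 kb from the start in KO replicates 2 and 3, and 0.428 and 0.442 kb in WT replicates 2 and 3. Brca1, a homologous recombination gene, had its summit 0.491 and 0.480 kb away in KO, and 0.488 and 0.469 kb in WT. Both positions recurred in every library. At Brca2, a homologous recombination gene too, the nearest summit was 3.18 and 0.409 kb away in KO and 3.14 and 0.449 kb in WT, close to the start in replicate 3 of both genotypes.

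**Figure D1:**
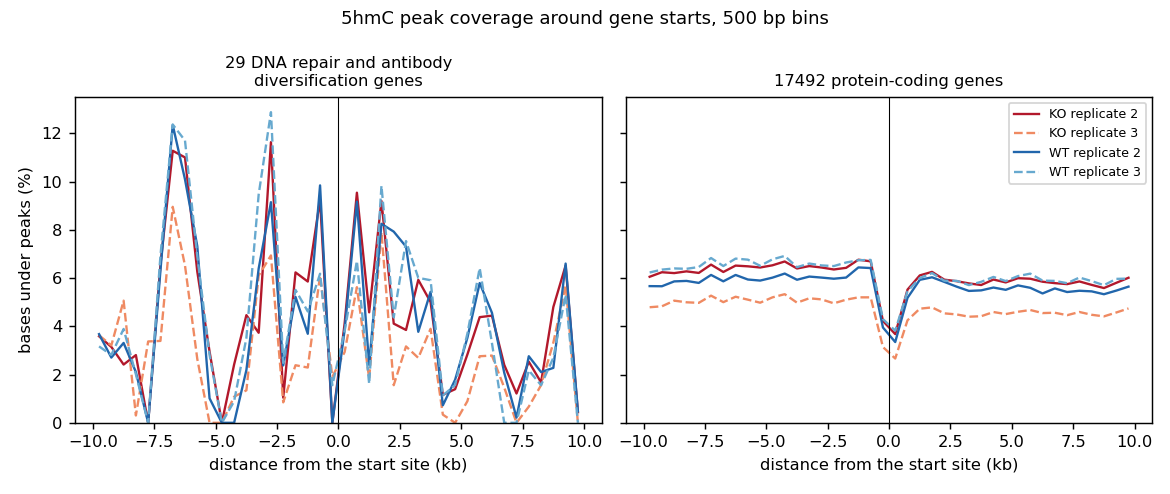
Percent of bases under 5hmC peaks (y axis) in 500 bp bins by distance from the start site (x axis, kb), for the 29 genes with a known start (left) and 17492 protein-coding genes (right), 1 line per library, not scaled between libraries. In the 500 bp before the start the 29 genes had 0% and 1.90% in KO replicates 2 and 3 and 0% and 1.56% in WT replicates 2 and 3, against 3.14 to 4.30% over all genes. With 29 genes the left panel is uneven.

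The peak lists differed between the libraries. The lists held 270548 to 300954 peaks and covered 110.6 to 139.3 Mb, with KO replicate 3 lowest in covered bases and in median fold enrichment (4.38, against 4.89 to 5.51 in the other 3). The median peak width was 347 bp in KO replicate 3, against 406 to 431 bp in the others. Read totals were not analysed here, so sequencing depth was not compared. The most frequent local background under a peak, recovered from the deposited fold enrichment and p-value, was 11.6 and 10.9 reads in KO replicates 2 and 3 and 8.66 and 11.7 reads in WT replicates 2 and 3. Covered bases were therefore scaled to equal totals over gene windows. This scaling removes differences in total coverage between libraries, so a general loss in KO cannot be seen in scaled values. The labelled cell type could not be checked with these data, since 5hmC on DNA is not expression. Peaks lay in the windows of 11 of 11 germinal center B cell markers and 3 of 3 erythroid markers. They also lay in those of 4 of 5 T cell (not Cd8a), 3 of 4 myeloid (not Lyz2) and 2 of 3 plasma cell markers (not Sdc1). Peaks covered 3213 and 2444 bases of the Tet2 window in KO replicates 2 and 3, and 3191 and 2810 in WT replicates 2 and 3, a measure that checks no deletion.

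Loss of TET2 was set against wild type gene by gene, as bases of each window under peaks. Scaled coverage summed over the 37 windows was 122030 and 122800 bases in KO replicates 2 and 3, against 127844 and 126212 bases in WT replicates 2 and 3. Both KO sums lay below both WT sums, but only after scaling: as called, the sums were 130343 and 104383 bases in KO cells and 127507 and 136876 bases in WT, and the genotypes overlapped. In limma, on log2(scaled bases + 200) over 14001 genes with a mean of at least 500 bases, 0 of the 31 genes that passed that filter were higher and 0 were lower in KO at a Benjamini-Hochberg adjusted p under 0.05, as for all genes tested (0% in each direction). At an unadjusted p under 0.05 there was 1 of the 31, against 4.06% of all genes. Besides the 3 genes with no peak, Exo1, Nbn and Xpc had too little coverage to be tested. The median log2 change of the 31 genes was -0.03, with 20 below 0, against a median of 0.02 and 46.5% below 0 over all genes tested. The number below 0 was 14 of 25 among peaks of at least 5-fold enrichment and 18 of 31 with equal numbers of peaks. It was 16 of 32 without KO replicate 3 and 25 of 31 without scaling. Both KO libraries lay below both WT libraries for 4 of the 31 genes (12.9%, against 13.6% of all genes) and above them for 3 (9.68%, against 18.0%), and for the other 24 the genotypes overlapped. Changes of thinly covered genes are understated on this scale, and a difference in height at a peak called in every library is not read by it. A general change of coverage is removed by the scaling. Without scaling the median log2 change over all genes was -0.10, and 0 genes passed. The windows of 29 of the 37 genes overlap that of another protein-coding gene, 0 of them that of another repair gene, so peaks near their ends may lie in a neighbour.

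**Figure D2:**
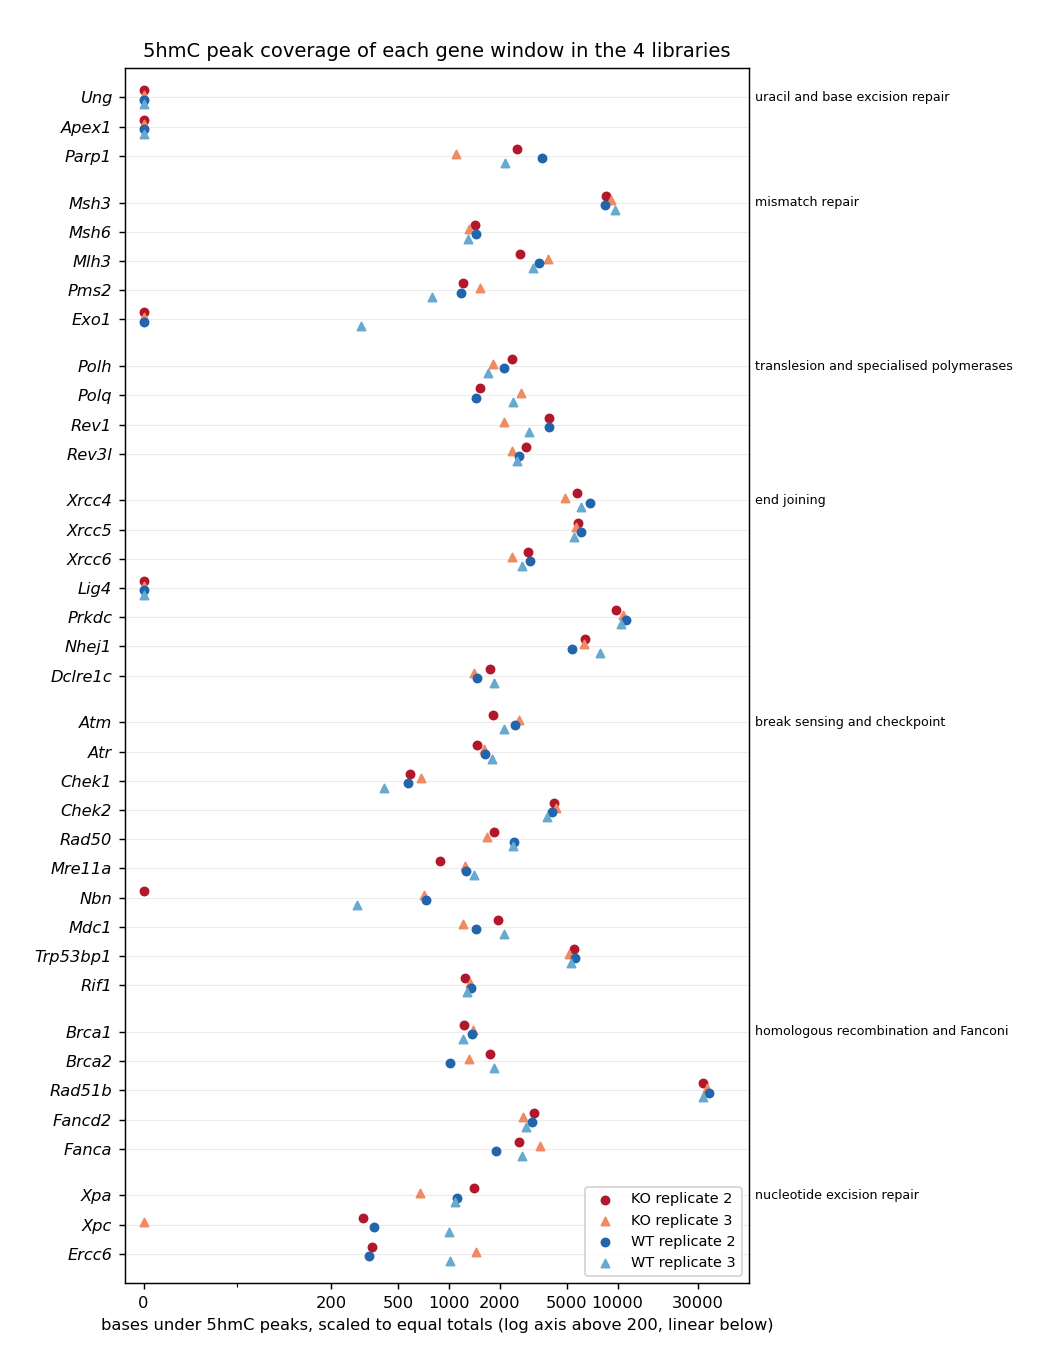
Bases under 5hmC peaks in each gene window, scaled to equal totals (x axis, logarithmic above 200 and linear below), for the 37 genes ordered by role, with 1 point per library. Coverage runs between 0 bases at Ung, Apex1 and Lig4 and 31894 to 34860 bases at Rad51b, and the 4 libraries of a gene mostly lie close together.

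Uracil and base excision repair. Ung, the glycosylase that removes the uracil, and Apex1, the endonuclease that cuts the abasic site it leaves, had no peak. Parp1, which senses strand breaks (chromosome 1, 180568891 to 180600999), was covered in all libraries, with 2544 and 1107 scaled bases in KO replicates 2 and 3 and 3564 and 2155 in WT replicates 2 and 3. The lowest of the 4 was KO replicate 3 and the highest WT replicate 2, and the genotypes overlapped. Its log2 change of -0.65 (standard error 0.42, limma adjusted p = 0.992) was the most negative among the 31 genes and was within the spread between libraries. It was -0.10 among peaks of at least 5-fold enrichment, -0.12 without KO replicate 3, -0.31 without WT replicate 2, -0.99 without WT replicate 3 and -1.19 without KO replicate 2.

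Mismatch repair. Msh3, which recognizes insertion and deletion loops (chromosome 13, 92211878 to 92355004), was the third most covered gene of the 37, with 8592 and 9148 scaled bases in KO cells and 8472 and 9677 in WT. The KO values lay between the WT values, and the log2 change was -0.03 (standard error 0.10, limma adjusted p = 0.996). Msh6, which recognizes base mispairs in antibody genes, had 1432 and 1314 bases in KO cells and 1454 and 1291 in WT, nearly equal in all 4. Pms2, the endonuclease subunit of the MutL complex (chromosome 5, 143909901 to 143972745), had 1208 and 1533 bases in KO cells and 1173 and 794 in WT. Both KO values were above both WT values, though KO replicate 2 exceeded WT replicate 2 by little, and the log2 change of 0.42 (standard error 0.23, adjusted p = 0.992) did not pass. It was 0.15 with equal numbers of peaks, and 0.65 without WT replicate 2 and 0.19 without WT replicate 3. Mlh3, a MutL subunit, had a log2 change of -0.04, and Exo1, the exonuclease that widens the gap, had a single peak, in WT replicate 3.

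Translesion and specialised polymerases. Polh, the polymerase that writes mutations at A:T pairs during antibody diversification, had 2355 and 1838 scaled bases in KO cells and 2114 and 1702 in WT. Rev1, a deoxycytidyl transferase and scaffold for other translesion polymerases, had 3950 and 2127 bases in KO cells and 3940 and 2973 in WT. In both genes the genotypes overlapped, and the same held for Polq, the polymerase of alternative end joining, and Rev3l, the catalytic subunit of polymerase zeta. The log2 changes of these 4 genes ran from -0.22 (Rev1) to 0.12 (Polh), and 0 passed in limma.

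End joining. All 6 measured genes had values below 0, from -0.27 to -0.01, and 0 passed. That count depended on the peaks used: it was 4 of 6 with equal numbers of peaks, 2 of 5 among peaks of at least 5-fold enrichment and 3 of 6 without KO replicate 3. Xrcc4, the partner of DNA ligase IV (chromosome 13, 89848914 to 90089608), had 5780 and 4889 scaled bases in KO cells and 6863 and 6037 in WT. Both KO libraries lay below both WT libraries, with a log2 change of -0.27 (standard error 0.13, limma adjusted p = 0.992). It was 0.15 among peaks of at least 5-fold enrichment. Prkdc, the DNA-dependent kinase catalytic subunit (chromosome 16, 15637444 to 15842239), had 9840 and 10802 bases in KO cells and 11196 and 10552 in WT, with a log2 change of -0.07 (standard error 0.09, adjusted p = 0.996). Xrcc5 and Xrcc6, which encode the Ku heterodimer, had log2 changes of -0.01 and -0.10. Nhej1, a stabilizer of the ligase complex, had -0.03, and Dclre1c, the Artemis nuclease, -0.06. Lig4, the ligase itself, carried no peak.

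Break sensing and checkpoint. Of the 9 genes tested, 3 had both KO libraries below both WT libraries (13.6% of all genes) and 2 had both above (18.0%), and 0 passed. Rad50, a subunit of the break-binding MRN complex (chromosome 11, 53649519 to 53707319), had 1857 and 1687 scaled bases in KO cells and 2445 and 2399 in WT. Every KO value was below every WT value, and its unadjusted limma p of 0.0250 was the smallest of the 31 genes (log2 change -0.41, standard error 0.13, adjusted p = 0.992). With a limit of 5-fold on the peaks used, its log2 change was -2.73. Its strongest union region had 4.6-fold and 4.04-fold peaks in KO and 5.18-fold and 5.75-fold peaks in WT, on both sides of that limit. Mre11a, the nuclease of the same complex (chromosome 9, 14784654 to 14837125), had 885 and 1254 bases in KO cells and 1258 and 1411 in WT, and KO replicate 3 and WT replicate 2 were nearly equal. Its log2 change was -0.29 (standard error 0.21, adjusted p = 0.992), and 0.05 with equal numbers of peaks. Nbn, the third subunit, was below the filter, with 0 and 713 bases in KO cells and 732 and 285 in WT.

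Of the kinases, Atr, which responds to stalled replication, had 1475 and 1625 scaled bases in KO cells and 1630 and 1793 in WT. The groups were separated by 5 bases, and the log2 change was -0.13 (standard error 0.15, limma adjusted p = 0.994). Atm, which responds to double strand breaks, had 1819 and 2594 bases in KO cells and 2455 and 2112 in WT. Chek1, the kinase downstream of Atr, had 588 and 685 bases in KO cells and 576 and 410 in WT, in 1 union region (log2 change 0.28, standard error 0.27, adjusted p = 0.992). Chek2, the kinase downstream of Atm (chromosome 5, 110839800 to 110874140), had 4223 and 4300 bases in KO cells and 4105 and 3797 in WT. Its log2 change was 0.11 (standard error 0.11, adjusted p = 0.992), and -0.01 without scaling. Mdc1, Trp53bp1 and Rif1, which act on chromatin around a break, had log2 changes of -0.15, -0.03 and -0.02, and their genotypes overlapped.

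Homologous recombination, Fanconi and nucleotide excision repair. Rad51b, a homologous recombination gene (chromosome 12, 79297282 to 79848260), held between 70 and 73 summits in each library, and its 31894 and 33791 scaled bases in KO overlapped the 34860 and 31990 in WT (log2 change -0.02, standard error 0.07, limma adjusted p = 0.996). Fanca, a subunit of the Fanconi core complex (chromosome 8, 123266294 to 123318651), had 2597 and 3466 bases in KO cells and 1892 and 2729 in WT. Its log2 change was 0.37 (standard error 0.23, adjusted p = 0.992), but -1.52 among peaks of at least 5-fold enrichment. Fancd2, which that complex ubiquitinates, had a log2 change of -0.01, and Brca1 and Brca2 had 0.02 and 0.12. Xpc, the damage sensor of nucleotide excision repair, was below the filter, with 311 and 0 bases in KO cells and 362 and 1003 in WT. Xpa, which verifies the lesion, had a log2 change of -0.13. Ercc6, which couples repair to transcription, had 0.24 with a standard error of 0.66, the widest of the 31 genes: 352 and 1453 bases in KO cells and 338 and 1010 in WT, high in replicate 3 of both genotypes.

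**Figure D3:**
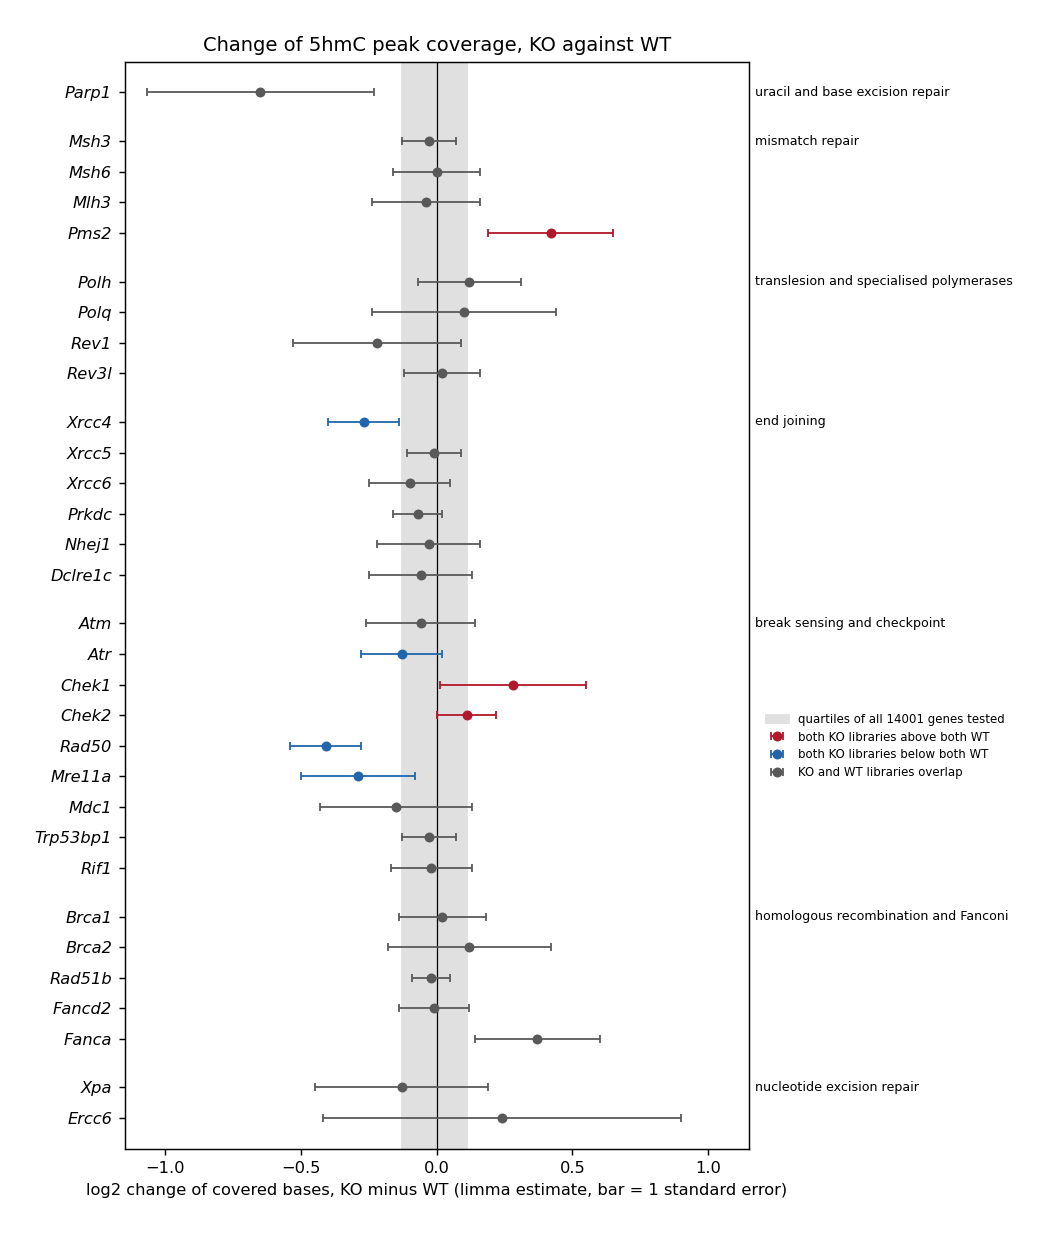
Limma log2 change of scaled covered bases, KO minus WT, with 1 standard error (x axis), for the 31 genes tested, by role. The grey band spans the quartiles of all 14001 genes tested (-0.13 to 0.11), red and blue mark genes whose KO libraries both lay above or below both WT libraries, and 0 genes passed an adjusted p of 0.05.

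The authors also deposited regions called higher in WT or in KO cells. These tables hold 24645 WT-higher and 50 KO-higher regions, with no replicate values, and their caller, score scale and compared libraries are not stated. In the authors' deposited table, 32 WT-higher regions fell in the windows of 16 of the 34 genes with peaks (47.1%, against 28.3% of all 18310 genes with a union region), and 0 KO-higher regions did (0.104% of all genes). Genes with more union regions more often hold one: 6.49% of all genes with 1 or 2 union regions did, against 88.3% of those with 21 or more. Per union region the share was 7.04% (25 of 355, 95% Wilson interval 4.82 to 10.2%, counting error only), against 7.26% of all 148856 union regions in gene windows. By number of union regions, 2 of 6 genes with 1 or 2 had a WT-higher region (33.3%, against 6.49% of all such genes), 1 of 7 with 3 to 5 (14.3%, against 19.1%), 5 of 13 with 6 to 10 (38.5%, against 36.3%), 5 of 5 with 11 to 20 (against 59.2%) and 3 of 3 with more (against 88.3%). At a deposited score of at least 5, 18 regions in 10 genes were left (29.4% of the 34, against 15.8%).

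Rad51b held 12 of the 32 WT-higher regions in the authors' deposited table. They lay in 10 of its 89 union regions (11.2%) or outside any, between 126 and 516 kb from the start, with none in the first 100 kb, where 12 union regions lie, and 5 between 300 and 400 kb, where 21 do. Genes of comparable peak number, the 54 with 80 to 100 union regions, had a median of 7 WT-higher regions (0 to 22), and 12 of them, Rad51b included, had at least 12. The region of highest score among the 32 (10.2, authors' deposited table) was at chromosome 12, 79634397 to 79634781, 337 kb into Rad51b. A peak overlapped it in KO replicate 2 (4.70-fold), WT replicate 2 (5.44-fold) and WT replicate 3 (3.31-fold), and none in KO replicate 3. Without Rad51b, 15 of 266 union regions (5.64%) contained a WT-higher region.

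**Figure D4:**
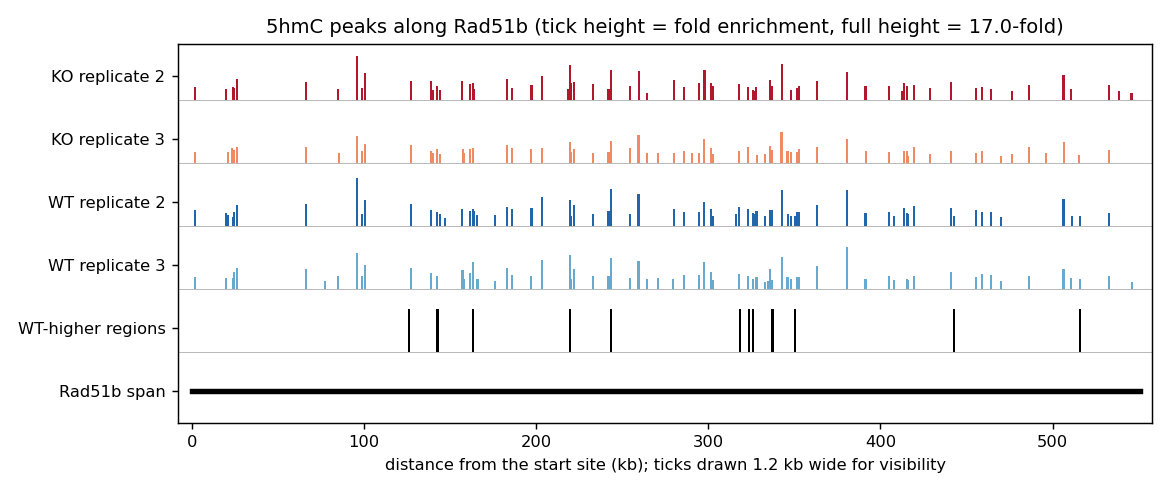
Peaks of the 4 libraries along Rad51b by distance from its start site (x axis, kb), tick height giving each peak's deposited fold enrichment with the highest at 17.0-fold, and with the 12 WT-higher regions of the authors' deposited table below. All 4 libraries share 52 of the 89 union regions, and the WT-higher regions lie beyond the first 100 kb.

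Parp1 had 3 WT-higher regions in the authors' deposited table with only 6 union regions. Of 2939 genes with 5 to 7 union regions, 1.19% had 3 or more. All 3 lay at the end of the gene, at 180599658 to 180599885, 180600801 to 180601264 and 180602197 to 180602538 on chromosome 1. The middle one spans the annotated end and the last lies beyond it. No library had a peak at the first of them. The middle region had a 3.19-fold peak in KO replicate 2 and none in KO replicate 3, and 3.62-fold and 2.84-fold peaks in WT replicates 2 and 3. The last had peaks of 10.4-fold and 8.26-fold in KO and 10.4-fold and 11-fold in WT.

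The other regions were spread thinly. In the authors' deposited table Msh3, Prkdc and Fanca had 2 WT-higher regions each, and 11 genes had 1: Msh6, Rev1, Xrcc4, Xrcc5, Xrcc6, Nhej1, Dclre1c, Chek2, Mre11a, Nbn and Trp53bp1. The 6 end joining genes with peaks each had at least 1, against 28.3% of all genes with a union region. They had 6 (Dclre1c) to 29 (Prkdc) union regions each. Of all genes, 36.3% with 6 to 10 union regions held one, 59.2% with 11 to 20 and 88.3% with 21 or more. Of the 97 union regions of the end joining genes, 5.15% contained one (7.26% over all genes). The region of Xrcc5 overlapped no peak and lay in none of them. Among genes with a known start, closest to it were those of Dclre1c, 0.671 kb into the gene, and of Msh6, 1.19 kb before it. The Msh6 region (chromosome 17, 87973666 to 87974050) had peaks of 3.19-fold and 2.67-fold in KO and 4.56-fold and 5.68-fold in WT, and 0 of the 32 regions lay in the window of another protein-coding gene. At Chek2, a region at 110864855 to 110865124 in the strongest peak of the gene had folds of 10.7 and 8.59 in KO and 15.9 and 11.7 in WT. Such folds are the authors' values for single peaks, and lists that differ in enrichment and background do not make them comparable between libraries. The 18 genes with peaks and no WT-higher region included Atm, Atr, Chek1, Rad50, Brca1, Brca2, Fancd2, Polh, Polq, Rev3l, Mlh3, Pms2 and Rif1.

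**Figure D5:**
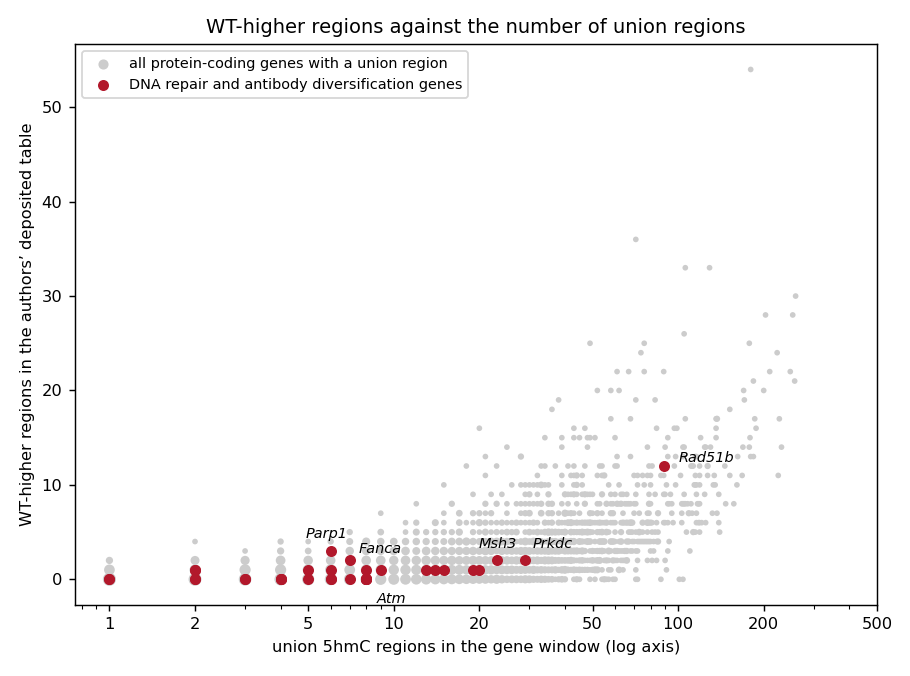
WT-higher regions per gene in the authors' deposited table (y axis) against the number of union regions in the gene window (x axis, logarithmic), grey for all 18310 protein-coding genes with a union region (larger where more genes coincide) and red for the repair genes. Rad51b stands at 89 union regions and 12 WT-higher regions, Parp1 at 6 and 3, and the repair genes lie within the cloud of other genes.

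The genotypes were also compared by the presence of a peak, with no test. Of the 355 union regions, 199 (56.1%, against 58.0% of all union regions in gene windows) had a peak in every library. A peak was present in 263 in KO replicate 2 and 261 in KO replicate 3, against 274 in WT replicate 2 and 291 in WT replicate 3. As shares these were 74.1% and 73.5% in KO and 77.2% and 82% in WT, against 77% and 75% in KO and 75.5% and 82.4% in WT over all genic union regions, where the genotypes overlapped. There were 5 regions with a peak in both KO and no WT library (1.41%, against 1.26%) and 12 that both WT libraries and no KO library held (3.38%, against 2.24%). With equal numbers of peaks, 6 and 7 regions met these patterns. With 1 library left out, 9 to 21 and 25 to 35 regions did, since fewer libraries then had to share a peak. The peaks of these 17 regions were weak, with folds of 3.11 to 4.22 in the KO-only and 2.65 to 4.64 in the WT-only regions. Rad51b held 3 of each kind, Rev1 1 of each, Fanca the remaining KO-only region, and Prkdc 2 WT-only regions. Parp1, Rad50, Xrcc4, Mre11a, Atm and Atr had 1 WT-only region each. The one in Mre11a (chromosome 9, 14827262 to 14827618) was the only one of the 17 that contained a WT-higher region of the authors' deposited table.

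The strongest union region of a gene differed widely in rank between genes. That of Rad51b, 95.8 kb from the start (chromosome 12, 79392666 to 79393571), reached 15.5-fold and 9.33-fold in KO replicates 2 and 3, and 17.0-fold and 12.8-fold in WT replicates 2 and 3. It ranked at the 98.6 percentile or above of each library's own list. Msh3 (chromosome 13, 92336777 to 92337564, 17.8 kb from its start) had 10.7-fold and 12.5-fold in KO and 14.9-fold and 11.4-fold in WT. Neither contained a WT-higher region. Weak throughout was Xpc, whose strongest region had 3.42-fold in KO replicate 2, no peak in KO replicate 3, and 3.58-fold and 3.75-fold in WT.

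Among 84 further genes of the same pathways, chosen by function with earlier results of these data known, 75 had a union region and 57 were tested. In limma 0 were higher and 0 lower in KO, the median log2 change was 0.01, and 26 were below 0 (45.6%, against 46.5% of all genes). Both KO libraries lay below both WT libraries for 8 of the 57 (14%, against 13.6% of all genes) and above for 12 (21.1%, against 18.0%). Polm, an end joining polymerase, had 821 and 527 scaled bases in KO cells and 1628 and 1202 in WT (log2 change -0.89, limma adjusted p = 0.992), and Rad23b, a partner of XPC, 1670 and 1076 in KO and 2435 and 2847 in WT (-0.87, adjusted p = 0.992). On the other side were Polk, a translesion polymerase, with 1475 and 1395 bases in KO cells and 1274 and 662 in WT (0.54), and Fance, a Fanconi core subunit, with 1244 and 839 in KO and 759 and 710 in WT (0.39). WT-higher regions of the authors' deposited table lay in 17 of the 75 genes (22.7%, against 28.3% of all genes with a union region). Most were in Rfc1, the large subunit of the clamp loader, with 5 in 19 union regions. Xrcc1, a base excision scaffold, had 4 in 18, and Poli, a translesion polymerase, 3 in 11. The share of union regions with a WT-higher region was 6.64% in the 75 genes, against 7.26% over all genes, and 0 of these genes had a KO-higher region.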

How the data were processed

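Per the submitters' processing notes, the build was GRCm38.p3 and the tools included MACS2 2.1.0.20151222 and BWA 0.7.12-r1039, without settings. The authors deposited 1 peak list per immunoprecipitated library, with a fold enrichment (ratio), a −log10 p-value, a −log10 q-value, a score and a summit for each peak. Per the file headers, a pair of tables lists regions enriched in KO and in WT cells, each with a deposited score of unstated scale. Gene spans and promoters came from RefSeq tables of GRCm38.p6, without exons; 37 of 37 names matched. Bases under peaks per window were summed, scaled to equal totals over all gene windows and tested as log2(bases + 200) with limma 3.58.1 (trend, robust) in R 4.3.3, which was tested on simulated data. Named in full were genes with 2 or more deposited regions, the largest changes without overlap, those with no peak and the 3 most covered. Whole pileups were recovered within 0.001 for at least 99.9974% of peaks. Members and lists were chosen with earlier results of these data known. With 2 libraries a group, an exact permutation test cannot go below p = 0.333, so none is given.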

Additional observations from a re-analysis of the deposited data

How the results depend on the processing

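In every alternative fit, 0 of the 25 to 34 repair genes tested and 0 of all genes tested passed an adjusted p of 0.05 in limma. The smallest adjusted p of the tested repair genes ranged from 0.705 without KO replicate 2 to 1 in several fits, and 568 of all genes had an unadjusted p under 0.05 as reported, 888 without KO replicate 2 and 364 without KO replicate 3. Over the tested genes, the differences between replicates 2 and 3 in KO and in WT correlated at 0.09. A correlation of coverage cannot decide if same-numbered libraries were prepared together, and such pairing was not tested. With the replicate block, 828 genes had an unadjusted p under 0.05, 4 of them repair genes, and the calls did not change.

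The median log2 change of the repair genes moved to -0.10 with peaks of at least 5-fold enrichment and to -0.15 without scaling, where the median of all genes was -0.10 in place of 0.02. Signs turned with peaks of at least 5-fold enrichment for Msh3 (0.33), Rad51b (0.14), Fanca (-1.52) and Xrcc4 (0.15), with equal numbers of peaks for Mre11a (0.05) and without scaling for Chek2 (-0.01). With the 5-fold limit, some other values kept their sign but grew: Rad50 was -2.73, Atr -0.96, Mre11a -0.79, Prkdc -0.54 and Chek2 0.32. Parp1 shrank to -0.10. In the strongest regions of Rad50, Fanca, Atr and Mre11a the folds lay on both sides of the limit. Those of Prkdc and Chek2 were above it in every library. Peaks just under 5-fold then count as no coverage, so these values need not measure a larger difference among strong peaks. With 1 library left out, Msh3 ranged from -0.12 to 0.06, Rad51b from -0.09 to 0.04, Parp1 from -1.19 to -0.12, Mre11a from -0.50 to -0.08, Xrcc4 from -0.38 to -0.15, Fanca from 0.13 to 0.61, Pms2 from 0.19 to 0.65 and Chek1 from 0.11 to 0.45. The cause was not tested.

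At a deposited score of at least 5, WT-higher regions numbered 18 in 10 genes and lay in 3.66% of union regions (3.13% over all genes). With peaks of at least 5-fold enrichment, 38.6% of the union regions were shared by all libraries (46.6% over all genes), 1 was KO-only (0.602%, against 0.37%) and 5 were WT-only (3.01%, against 4.4%). With equal numbers of peaks 6 were KO-only (1.79%, against 1.52%) and 7 were WT-only (2.08%, against 1.68%). With 1 library left out, KO-only regions ranged from 9 to 21 (2.54 to 5.92%, against 2.86 to 6.32% over all genes) and WT-only regions from 25 to 35 (7.04 to 9.86%, against 4.33 to 8.59%). The 2 libraries per genotype and peak lists of unequal coverage limit these comparisons.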

Other observations

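The WT-higher regions in the repair genes often lay away from shared peaks. In the authors' deposited table, 16 of the 32 (50%) overlapped a peak in all 4 libraries, against 76.1% of all 24645 WT-higher regions, and 6 (18.8%) overlapped no peak of any library, against 4.96%. These 6 were 2 in Rad51b and 1 each in Parp1, Xrcc5, Prkdc and Nbn. The one in Prkdc (chromosome 16, 15739125 to 15739334) had a score of 7.56 in the authors' deposited table, the second highest of the 32. A peak was present at 20 of the 32 regions in KO replicate 2 and 17 in KO replicate 3, and at 25 and 23 in the WT libraries. Over all WT-higher regions a peak was present at 85.7% and 76.9% in KO and 92.9% and 90% in WT, the same order. The regions were listed because WT exceeded KO, and no test of these shares was made.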
